A study of Mus musculus with 2 samples.

Results

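Mature dendritic cells that carry Ccr7, the receptor that guides dendritic cells toward lymphatic vessels, were examined among live CD45+ leukocytes sorted from mouse B16-F10 melanomas. A cell was counted as mature when its unique molecular identifiers (UMIs, the count of distinct captured transcripts) included at least 1 of Fscn1 and at least 2 of Ccr7, at most 1 of Xcr1 and Clec9a together, at most 1 of Cd209a, and 0 of Cd3e and Cd79a. Of 22490 cells that passed the quality filter, 427 met this rule, 231 of them from Trex1 iKO tumours and 196 from Trex1 control tumours. The rule used measured values, so the levels of the rule's own genes are given as a description only.

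Male mice of 8 to 12 weeks received 1000 B16-F10 cells in Matrigel in the skin of both legs, and tumours were taken on day 14. All mice carried the tamoxifen-inducible Cre recombinase R26CreERT2 as one knock-in allele (ki/wt), and all were given 1 mg tamoxifen on 3 days in a row from day 5. The Trex1 iKO mice were Trex1 fl/fl and the Trex1 control mice Trex1 wt/fl, so the controls were heterozygous for the floxed allele and had been exposed to Cre and tamoxifen too. R26CreERT2 is driven from the Rosa26 locus, which is active in most cell types, so the deletion was not restricted to dendritic cells. Each genotype had 4 samples, marked by hashtag antibodies and run as 1 pool per genotype: genotype and pool are the same split and cannot be told apart in any comparison here. The labels do not say that each sample is 1 mouse, so p-values measure the spread between these samples. No barcode of a member was also a member's in another sample, while over all barcodes 45 were shared by samples of different pools. No member held more counts of a foreign hashtag than of its own. The samples came already separated, and the leading hashtag of a sample was taken as its own, so this does not check the assignment.

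Dendritic cells present antigen to T cells. On maturation they take up less antigen, raise costimulatory ligands and cytokines through NF-kB signalling, remodel their actin cytoskeleton and migrate toward T cell zones. Type 1 cells (cDC1), which cross-present antigen to CD8 T cells, and type 2 cells (cDC2), which mainly serve CD4 T cells, both pass into this state. TREX1 is an exonuclease that degrades cytosolic DNA, and its absence is known to allow signalling through the DNA sensor cGAS and the adaptor STING, with type I interferon as one product.

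The cells were well covered. Their summed profiles held 386289 to 1563013 UMIs per sample, and the median per cell ranged from 12991 to 16898 UMIs in iKO and from 11302.5 to 13882 in control. Over all kept cells, sample medians were 13048 to 14677 UMIs in iKO and 6557 to 11931 in control. Trex1 itself had 0 counts in the mature cells of all 8 samples. At 3 counts per sample this allows up to 1.92 to 7.77 CPM (counts scaled to the library total). It had 2 counts in all kept cells together, both in control sample 2. Atrip, the other gene looked at for this check, had 131 to 1074 counts in the kept cells of each sample. Trex1 was thus almost uncounted in the controls too, so the bound covers counting only and is no limit on its expression. The reason was not tested. The targeted gene therefore could not check the genotype labels in these cells.

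The label fitted its markers. Cacnb3 had a UMI in 95.6% of members, Socs2 in 94.9% and Il4i1 in 90.4%, against 2.21%, 10.7% and 3.08% of 2532 cells with at least 3 UMIs of the macrophage gene C1qa, whose median depth was higher (18459.5 against 14286 UMIs). Flt3, a receptor of the dendritic lineage, was detected in 76.8% of members and Zbtb46, a transcription factor of conventional dendritic cells, in 51.8%. The NK cell gene Ncr1 had no UMI, and Siglech, of plasmacytoid cells, was found in 3 members. Macrophage and monocyte transcripts were present: C1qa had a UMI in 20.4% of members, and 6 macrophage markers summed to 84.1 to 443 CPM in iKO and 128 to 1447 in control. Control samples 1 and 3 were the highest of these, at 1447 and 896. The 4 monocyte markers summed to 62.1 to 540 CPM in iKO, highest in sample 2, and 39.5 to 207 in control. Their part in the results was not tested. The boundary was thinly populated: 402 of the 427 members had 6 or more Ccr7 UMIs, 7 had exactly 2, and 12 cells lay just outside with 1. Cacnb3 was detected in 100% of the 7 cells just inside, in 33.3% of the 12 just outside and in 5.88% of 170 cells that met the rest of the rule with no Ccr7. Low counts of other lineages were common, since 274 members carried at least 1 UMI of Cd3d, Cd3g, Cd79b, C1qa or C1qb.

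Compared with immature dendritic cells of the same tumours, genes of migration, costimulation and NF-kB signalling mostly took a far larger share of the mature cells' transcripts. Class I genes took a larger share too, with median log2 differences of 0.71 from the cDC1 gate and 1.22 from the cDC2 gate, both defined below. Class II and cell cycle genes mostly took a smaller one. These are shares of the total, not transcripts per cell. Sample medians were 11302.5 to 16898 UMIs per mature cell, 23355 to 32974 in the cDC1 gate and 16279 to 24234.5 in the cDC2 gate. The comparators were 261 cells of a cDC1 gate (at least 2 UMIs of Xcr1 and Clec9a) and 271 of a cDC2 gate (at least 2 UMIs of Cd209a), all without Ccr7. Since gates picked each population by its own transcripts, these differences describe the gated cells. In edgeR's quasi-likelihood fit with the sample as a block and Benjamini-Hochberg adjustment at 0.05, 2269 of 7242 genes (31.3%) were higher and 2366 (32.7%) lower than in the cDC1 gate. Against the cDC2 gate, 2197 of 7245 (30.3%) were higher and 2330 (32.2%) lower, so a call in this comparison is common for any gene.

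The genes furthest above the cDC1 gate were nearly silent there. Nudt17 had 1090 counts in mature cells and 0 in the cDC1 gate, at least 400-fold higher when 3 counts over the group stand in for 0. Tmem150c was at least 205-fold, Slco5a1 at least 125-fold, Synpo2 at least 119-fold, Cdkn2b (a cyclin-dependent kinase inhibitor) at least 96.1-fold and Arc at least 90.3-fold higher by the same bound. Areg, which encodes the growth factor amphiregulin, had 440 counts against 2, a ratio of 242 (95% exact interval of the counts 66.6 to 2006). Ramp3, a partner of calcitonin-family receptors, stood at 666 ± 137 CPM (mean ± SD, n = 8 samples) against 1.13 ± 1.09. Intervals and floors here cover counting error only.

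The genes furthest below the cDC1 gate were not all particular to it, since Plet1, Septin3 and Mctp1 were far below the cDC2 gate too. Plet1 had 2 counts in mature cells against 853 in the cDC1 gate, a ratio of 387 (107 to 3204), and Clnk 0 against 71, at least 21.5-fold lower. Septin3 was lower by a log2 difference of -7.72 (SE 0.26), the integrin Itgae by -6.80 (0.28), the transcription factor Egr3 by -6.27 (0.32) and the double-stranded RNA receptor Tlr3 by -5.85 (0.37). Serpinf1, Mctp1, Cxcr3 and Pianp had 1 to 3 counts in the mature cells. Of 13 genes of the cDC1 list, 11 were lower and 1 higher. The higher one, Batf3, a transcription factor that cDC1 need, was at 257 ± 43.2 CPM against 169 ± 24.6 in the cDC1 gate, while Irf8 was lower, at 821 ± 393 against 1335 ± 172.

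Against the cDC2 gate, Nudt17 again had no count in the comparator (at least 317-fold higher), as did the non-classical class I gene H2-M2 (at least 177-fold), Slc22a23 (at least 99.2-fold) and Clu (at least 80.0-fold). Il12b, the p40 chain of interleukin 12 and 23, had 2507 counts against 2, a ratio of 1094 (303 to 9039). Apol7c had 1381 against 1, a ratio of 1205 (216 to 47641), and Slc27a3, Adcy6 and Scin had 1 or 2 counts in the cDC2 gate. In the other direction, Clec10a, a lectin of cDC2, was at 6.62 ± 6.5 CPM against 457 ± 142, Mgl2 at 18.5 ± 17.4 against 494 ± 328, and Cd209d had 0 counts against 289, at least 110-fold lower. Ctnnd2, Rgs18, Cdh1 and Ckb were lower by log2 differences of -5.79 (SE 0.33), -4.65 (0.37), -4.70 (0.51) and -4.57 (0.21). As against the cDC1 gate, Plet1 was lower, with 2 counts against 209, a ratio of 120 (32.7 to 995). So were Mctp1, with 2 against 75, and Septin3, by -5.82 on the log2 scale. Of the cDC2 list, 11 of 13 genes were lower and 0 higher. S100a4, one of the 11, was still abundant in mature cells, at 2634 ± 498 CPM against 3065 ± 516.

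Of the migration and cytoskeleton genes, 12 of 13 were higher than in the cDC1 gate and 13 of 13 than in the cDC2 gate, with median log2 differences of 3.30 and 3.503 against -0.02 and -0.004 over all genes. Tmem123 was at 1587 ± 183 CPM in mature cells and 36.6 ± 5.82 in the cDC1 gate. Marcksl1, an actin-binding substrate of protein kinase C, was higher by 4.86 (SE 0.22) and 3.79 (0.14) on the log2 scale, and Samsn1 by 6.06 (0.19) and 4.43 (0.14). Every one of the 18 NF-kB genes was higher than in the cDC1 gate and 17 than in the cDC2 gate. They included subunits of the non-canonical arm, with Relb higher by 4.45 (0.13) and 3.68 (0.13) and Nfkb2 by 2.83 (0.12) and 2.21 (0.14), and its kinase Map3k14, by 3.08 (0.19) and 2.32 (0.20).

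Of the costimulation list, 14 of 14 tested genes were higher than in the cDC1 gate and 12 of 13 than in the cDC2 gate. Cd80, a ligand of CD28, was higher by 3.77 (SE 0.21) and 2.38 (0.18) and its relative Cd86 by 0.83 (0.14) and 0.87 (0.13). Il15ra, which presents interleukin 15 to T and NK cells, was higher by 4.13 (0.17) and 4.53 (0.26). Cd70 had 306 counts in mature cells and 1 in each comparator. The exception was Tnfsf9, the 4-1BB ligand, at 125 CPM in mature cells and 209 in the cDC2 gate. Genes that restrain T cells were high in the same cells: Cd274 (PD-L1) was higher by 2.81 (0.21) and 2.89 (0.17), Pdcd1lg2 (PD-L2) by 2.76 (0.22) and 2.38 (0.21) and Cd200 by 6.24 (0.24) and 7.68 (0.24). Havcr2 (TIM-3) and Lgals9 went the other way, at -2.91 (0.24) and -1.51 (0.25) against the cDC1 gate.

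Chemokines were split by gene. Ccl5, which draws T cells and was the most abundant chemokine here, was at 8808 CPM in mature cells against 87.0 in the cDC1 gate, and Ccl22, a ligand of CCR4, at 774 against 11.98. Ccl4 was lower, at 155 against 405 CPM, and so was Cxcl9 against the cDC1 gate. Ccl19 was nearly absent from these counts, with a UMI in 0 to 1.59% of members per sample after every cell was thinned to 3000 UMIs and in 0 to 3.85% before. For antigen presentation, 15 of 19 class I genes were higher than in the cDC1 gate and 18 of 19 than in the cDC2 gate, H2-K1 by 1.44 (SE 0.09) and 1.28 (0.08), and B2m by 1.22 (0.09) and 1.22 (0.08). Class II genes were lower for 10 of 12 and 12 of 12. H2-Ab1 was lower by -1.81 (0.10) and -1.92 (0.11), H2-DMb1, a chain of the peptide editor, by -3.22 (0.20) and -3.48 (0.17), and Ciita, the class II transactivator, by -1.95 (0.20) and -2.05 (0.17). Marchf1, a ligase that removes class II molecules from the surface, was at 8.27 ± 6.20 CPM against 141 ± 17.5 in the cDC1 gate.

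Of the type I interferon list, 16 of 50 genes were higher and 13 lower than in the cDC1 gate, with a median of -0.03. Against the cDC2 gate 9 of 51 were higher and 24 lower, with a median of -0.43 beside -0.004 over all genes. Epsti1, an interferon-induced gene, was higher by 2.78 (SE 0.13) and 2.53 (0.12). The DNA sensor Cgas was lower by -1.89 (0.20) and -1.37 (0.22), and Unc93b1, which escorts endosomal Toll-like receptors, by -1.92 (0.11) and -1.10 (0.10). Cell cycle genes were lower for 14 of 16 and 13 of 17. Dissociation-stress genes were lower for 9 of 18 and 14 of 18, Fos by -2.33 (0.13) and -2.11 (0.16).

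**Figure D1:**
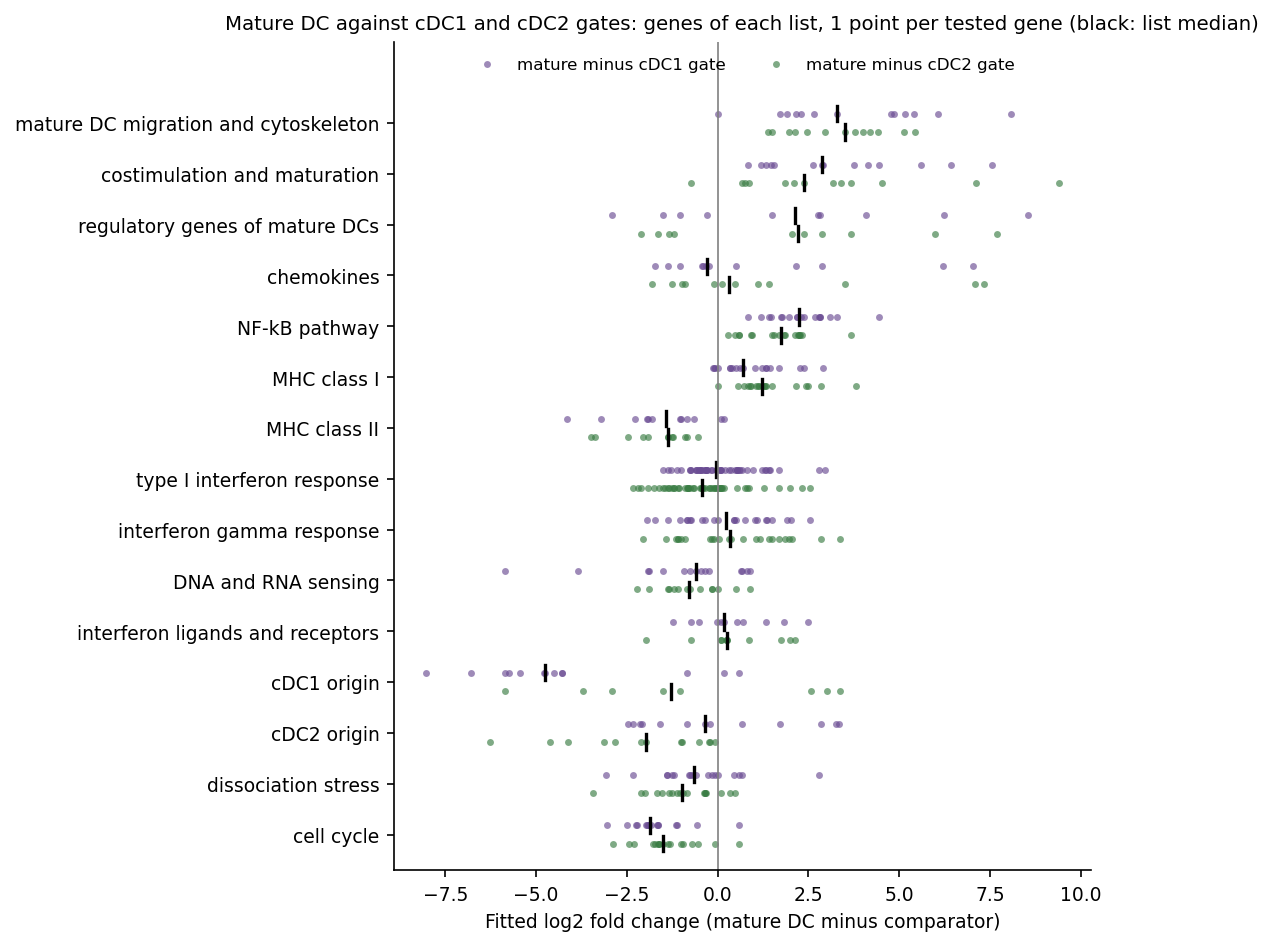
Fitted log2 fold change of each tested list gene in mature dendritic cells minus the cDC1 gate (purple) and minus the cDC2 gate (green), over 8 samples, with genes of the gates left out and black ticks for list medians. The migration, costimulation and NF-kB lists lie to the right of 0, with medians from 1.75 to 3.503, and the class II and cell cycle lists to the left.

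The mature cells were not uniform among themselves. In 418 members thinned to 3000 UMIs each, the 40 genes with the largest spread relative to their mean (variance over mean, at a mean of at least 0.2 UMIs) were looked at after their values were seen. Ccl5 had a mean of 26.9 UMIs and a variance 43.4 times as large, and was detected in 87.1% of cells, with 233 UMIs in the highest cell. Fabp5, a fatty acid binding protein, had a ratio of 26.04, Isg15 of 16.6 and Cxcl10 of 13.8. Il12b was found in a minority, with a UMI in 23.4% of thinned cells and a variance 10.1 times its mean. Without thinning it was found in 25 to 44.2% of members per sample. Unthinned C1qa cells, which set the background, had it in 0 to 1.57% per sample. Ccl22 was detected in 49.3% of thinned cells and Ccl17 in 52 of the 418. Ccl17, the other CCR4 ligand, sat largely within the Ccl22 cells: 21.8% of those with Ccl22 had a Ccl17 UMI against 3.30% of those without, and Pearson's r of the log counts was 0.42 across the 418 cells. Isg15 went with Ifi27l2a (r = 0.55) and Irf7 (0.53), and Cxcl9 with Cxcl10 (0.41). Il12b had an r of 0.07 with Ccl22. Cells of 1 sample share library and genotype, so these values describe the cells pooled over samples.

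The abundance of mature cells did not separate the genotypes. Of kept cells, 1.19%, 0.881%, 2.53% and 4.07% were mature in the iKO tumours, in sample order. The control tumours held 1.52%, 2.63%, 2.06% and 2.55%. The iKO values spanned the whole control range, with the 2 lowest and the highest share of all 8. Means were 2.17 ± 1.46% and 2.19 ± 0.51% (SD, n = 4 each), a difference of -0.02 percentage points (two-sided exact permutation test over 70 splits, p = 0.971; the smallest p possible is 0.0286).

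Among gated dendritic cells of the 3 classes, 42.2%, 39.4%, 47.1% and 62.9% were mature in iKO and 38.5%, 44.6%, 36.5% and 41.6% in control. The groups overlapped, and the means of 47.9 ± 10.5% and 40.3 ± 3.52% differed by 7.63 points (exact permutation p = 0.171, adjusted 0.429 over 3 comparisons). When each cell was thinned to 3000 UMIs before gating, the same share was 65.5 ± 5.64% for iKO and 55.7 ± 5.88% for control, and the groups no longer overlapped (a difference of 9.82 points with an exact permutation p of 0.0286, unadjusted, the smallest possible). Thinning mostly shrank the comparators. Mature cells numbered 428 against 427 before, but the mature gate changed within samples, from 100 to 91 cells in iKO sample 4 and from 57 to 64 in control sample 3. The cDC1 gate held 7 to 25 cells per sample against 15 to 56, and the cDC2 gate 8 to 32 against 15 to 57. Without iKO sample 4 the unthinned difference was 2.63 points. Median UMIs per mature cell were 14729 ± 1835 for the iKO group and 13123 ± 1219 for controls (p = 0.286 by exact permutation, adjusted 0.429).

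**Figure D2:**
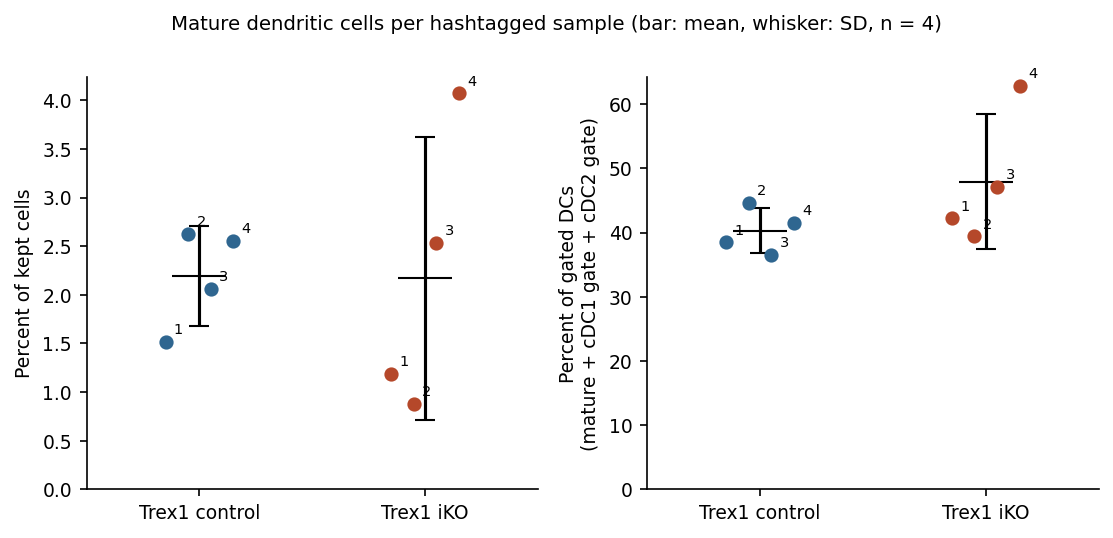
Percent of kept cells (left) and of gated dendritic cells (right) that were mature, 1 point per sample with its number, bars for means and whiskers for SD (n = 4). The iKO shares of kept cells run from 0.881 to 4.07% and enclose the control range of 1.52 to 2.63%.

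Between genotypes, few genes of the mature cells were called. Of 5931 genes tested, 10 passed edgeR's adjusted p of 0.05 (0.169%), 6 higher in iKO (0.101%) and 4 lower (0.0674%). The median log2 difference over all genes was -0.01, and 723 genes (12.2%) had an unadjusted p under 0.05. The higher genes included Isg15, Ifit1, Oasl1, H2-Q6 and Tapbpl. The lower genes were S100a8, S100a9, Cxcl2 and Rps10. The number of calls rested on single samples, and was 2 without iKO sample 1, 16 without iKO sample 2, 78 without iKO sample 4, 1 without control sample 2, 0 without control sample 3 (613 unadjusted) and 3 without control sample 4. DESeq2 called 70 genes, the 10 among them, 52 higher and 18 lower.

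Isg15, a ubiquitin-like modifier, was at 3092, 2018, 2300 and 851 CPM in the iKO samples, in order, and at 394, 146, 337 and 341 in the controls. All iKO samples stood above all controls, with iKO sample 4 the lowest of its group. The log2 difference was 2.76 (SE 0.37, edgeR adjusted p = 0.0174), and it was called in 5 of 8 fits that each left out 1 sample, with a highest adjusted p of 0.0613 among them. It was not called among members without UMIs of Cd3d, Cd3g, Cd79b, C1qa and C1qb (6 samples). In the remaining leukocytes of each sample Isg15 was also higher in iKO, at 777 to 1444 CPM against 195 to 309.

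Ifit1, which binds foreign RNA, was at 338, 79.3, 189 and 39.8 CPM in iKO and 15.4, 6.70, 13.2 and 6.90 in control, a log2 difference of 3.94 (SE 0.67, edgeR adjusted p = 0.0470). Oasl1, of the oligoadenylate synthetase family, was at 236, 138, 156 and 39.1 CPM against 30.9, 16.7, 19.3 and 8.05, a difference of 3.00 (0.52, edgeR adjusted p = 0.0496). In both, iKO sample 1 was the highest and iKO sample 4 the lowest of its group, still above every control. Ifit1 was called in 2 and Oasl1 in 1 of the 8 fits that left out a sample.

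Many interferon-stimulated genes carry a short promoter sequence, the interferon-stimulated response element, through which interferon signalling acts. The 150 bases before the start site of the 3 called genes are shown for this reason, 5′ to 3′ on the gene's strand, from RefSeq promoters of GRCm38.p6 (the counts themselves were made on GRCm39). Capitals mark the searched motif, which is GAAA, 2 bases of any kind and GAAA again, or its reverse complement on the other strand. The windows are chr4:156200819-156200968 (minus strand) for Isg15, chr19:34640739-34640888 (plus) for Ifit1 and chr5:114923090-114923239 (plus) for Oasl1.
Isg15: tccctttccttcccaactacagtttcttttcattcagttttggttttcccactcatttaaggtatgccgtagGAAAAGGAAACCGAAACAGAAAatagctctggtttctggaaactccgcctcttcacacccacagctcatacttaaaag
Ifit1: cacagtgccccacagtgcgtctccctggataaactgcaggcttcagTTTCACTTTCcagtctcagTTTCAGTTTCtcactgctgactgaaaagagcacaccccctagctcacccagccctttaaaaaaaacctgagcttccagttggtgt
Oasl1: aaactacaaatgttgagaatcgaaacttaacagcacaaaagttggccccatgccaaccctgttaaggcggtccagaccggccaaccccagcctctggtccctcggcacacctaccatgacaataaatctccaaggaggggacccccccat

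The Isg15 window held 3 overlapping matches on the gene's strand, the Ifit1 window 2 separate matches on the other strand, and the Oasl1 window none. Over the 250 bases before the start, on either strand, 936 of 27025 genes (3.46%) had a match. In the type I list, 15 of 36 genes found in the promoter table had one (41.7%), and in the class I list 3 of 16. The interferon gamma list had more, at 8 of 13 (61.5%), and the nucleic acid sensor list had 3 of 8 (37.5%), so a high share was not particular to the type I list. A match is a description of letters, not a bound site.

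The wider type I interferon list pointed one way: 45 of its 45 tested genes (of 53 listed) had a log2 difference above 0, with a median of 1.44. Over all genes, 2915 of 5931 were above 0. By edgeR the 3 genes above were called and by DESeq2 16 of the 45, where 6 and 52 of all 5931 were called higher. In 9 of the 45 the groups did not overlap, where 3.39% of all genes lay wholly higher in iKO. The list was chosen with earlier results of these data known, so its direction is no independent evidence. Irf7, the transcription factor that amplifies type I interferon, was at 573, 482, 117 and 101 CPM in iKO and 69.4, 46.9, 92.7 and 12.7 in control (log2 difference 2.54, SE 0.62, edgeR adjusted p = 0.136). Ifi27l2a was at 3139, 3173, 750 and 1069 against 1214, 638, 730 and 415, and its groups overlapped.

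Within the iKO group the samples were far apart. In 37 of the 45 genes, iKO samples 1 and 2 both exceeded samples 3 and 4, which held for 1306 of 5929 genes overall. Sample 4 was the lowest of the iKO group in 32 of the 45, and control sample 1 the highest of its group in 38. Some summed markers of other cells were also high in the mature cells of iKO samples 1 and 2. The 6 cDC2 markers summed to 587 and 630 CPM there and to 143 to 281 in the other samples. The 4 B cell markers summed to 64.2 and 61.1 against 15.4 to 27.9. Other sums did not share this order. The 6 macrophage markers summed to 84.1 and 260 CPM in iKO samples 1 and 2 and to 128 to 1447 in the other samples. The 4 neutrophil markers summed to 84.1 and 79.1, against 70.2 and 87.0 in iKO samples 3 and 4 and 197 to 414 in control. Single markers differed. Over all members Ms4a4c was the largest cDC2 marker, at 186 CPM, with Sirpa next at 64.4. Mean Ms4a4c was 316 CPM in iKO members against 90.5 in control, 413 against 99.7 in the cDC1 gate and 1122 against 415 in the cDC2 gate. Among members, Ms4a4c was found in 39.4 to 61.5% in iKO and 15.6 to 28.9% in control. Clec10a went the other way, at 0 to 3.03% against 3.51 to 8.89%, as did the B cell marker Ms4a1, at 0 to 1% against 1.56 to 4.44%. The part of these markers in the order of samples was not tested. Summed over the list, the iKO samples held 18122, 15692, 8935 and 6225 CPM and the controls 6618, 3915, 4892 and 3668, so iKO sample 4 lay below control sample 1. Without iKO sample 4, 23 list genes were called instead of 3, and without control sample 2, 3 or 4 none was.

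**Figure D3:**
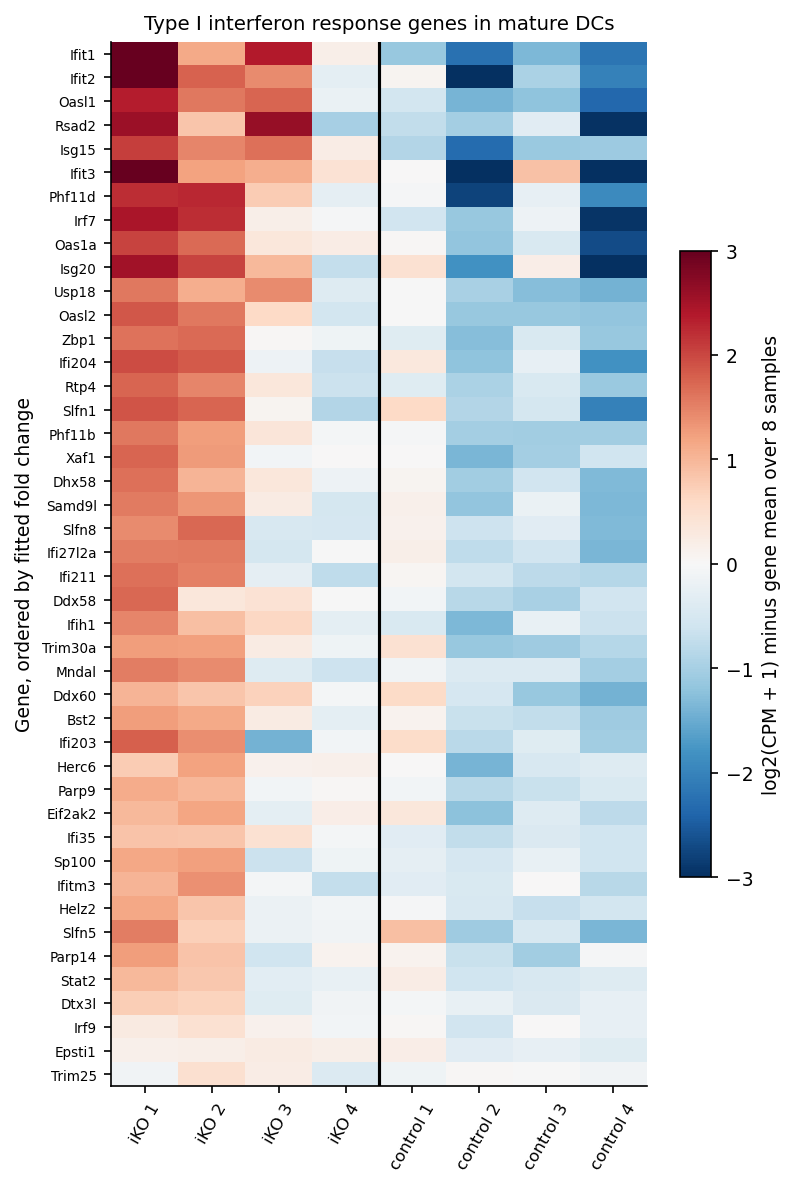
log2(CPM + 1) of the tested type I interferon genes, except 1 that is not shown, in summed mature cell profiles, minus each gene's mean over the 8 samples, with the colour scale ending at -3 and 3. iKO samples 1 and 2 are red in nearly all rows and iKO samples 3 and 4 are paler, with control sample 1 the reddest control.

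Counted cell by cell, iKO samples 1 and 2 again stood highest. UMIs of the list per 10000 UMIs had medians of 118, 106, 43.3 and 42.9 per mature cell in the iKO samples, in order, and 46.7, 31.6, 29.8 and 27.4 in the controls. iKO samples 3 and 4 were thus within the range of the control medians. The 90th percentile of all control members was 80.9, and 63.0%, 67.3%, 24.2% and 18% of iKO members exceeded it, against 20%, 4.44%, 14.0% and 6.25% of control members. Single cells reached 743 in iKO sample 1 and 355 in control sample 3. The 2 iKO samples with the highest medians were those with the smallest shares of mature cells.

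**Figure D4:**
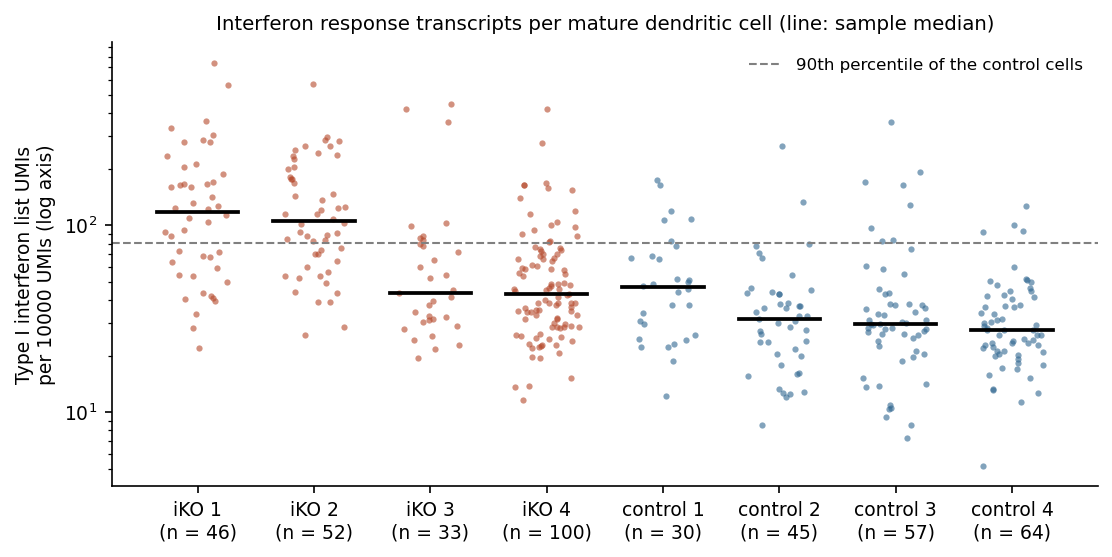
UMIs of the 53 listed type I interferon genes per 10000 UMIs in each mature cell (log axis), by sample, with black lines for medians and a dashed line at the 90th percentile of control cells, 80.9. Cells of iKO samples 1 and 2 are displaced upward as a body, while iKO samples 3 and 4, with medians of 43.3 and 42.9, resemble control sample 1 at 46.7.

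Class I presentation genes were likewise all above 0, 19 of 19, with a median of 0.64, where 2915 of all 5931 genes were above 0. Among them, 2 were called higher by edgeR, 8 by DESeq2, and 10 lay wholly higher in iKO. Over all 5931 genes the same counts were 6, 52 and 201. H2-Q6, a non-classical class I gene, was at 575, 461, 406 and 411 CPM in iKO and 257, 231, 278 and 225 in control (log2 difference 0.90, SE 0.14, edgeR adjusted p = 0.0245). H2-Q genes are near-identical copies, so the split of reads between them is uncertain. Tapbpl, a peptide editor related to tapasin, was at 186, 184, 152 and 161 against 95.2, 100.5, 108 and 88.6 (0.80, SE 0.13, edgeR adjusted p = 0.0433).

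The classical genes H2-K1 and H2-D1 and the peptide transporter Tap1 did not pass in edgeR and did in DESeq2, and their groups did not overlap. H2-K1 was at 3151 to 4290 CPM in iKO and 2138 to 2983 in control (log2 difference 0.64, SE 0.14, edgeR adjusted p = 0.111), and Tap1 at 324 to 477 against 216 to 283 (0.72, SE 0.15, adjusted p = 0.0793). H2-D1 had the same fitted difference as H2-K1, 0.64 (0.14). H2-Q6 was called in 3 and Tapbpl in 2 of the 8 fits that left out a sample.

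Genes lower in iKO included a pair that neutrophils express strongly. S100a8 and S100a9, the chains of calprotectin, were at 22.3 to 41.4 and 43.2 to 55.3 CPM in iKO and at 86.3 to 152 and 109 to 244 in control. Their log2 differences were -1.75 (SE 0.23, edgeR adjusted p = 0.0174) and -1.65 (0.24, adjusted p = 0.0213). A UMI of S100a8 was found in 27.3 to 39.1% of iKO members and 68.4 to 70% of control members per sample. The other neutrophil markers of the list, Csf3r and G0s2, were found in 20 and 26 of the 427 members. In the remaining leukocytes the 4 markers, S100a8 and S100a9 among them, summed to 728 to 6988 CPM in iKO and 4673 to 12183 in control. S100a8 alone was at 310, 578, 3573 and 2551 CPM there in the iKO samples, in order, and at 5333, 2210, 1914 and 3462 in the controls. iKO sample 3 was thus above control samples 2 and 3 there, while its members had the lowest share with an S100a8 UMI, 27.3%. The part of the remaining leukocytes in the S100a8 and S100a9 difference was not tested.

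Cxcl2, a chemokine for neutrophils, was at 19.2, 34.8, 22.3 and 41.2 CPM in iKO and 123, 337, 134 and 133 in control (log2 difference -2.55, SE 0.36, edgeR adjusted p = 0.0193). The groups did not overlap, and control sample 2 held 1 cell with 132 UMIs. The remaining leukocytes also held less Cxcl2 in iKO, 440 to 1714 CPM against 1968 to 3785. Rps10, a ribosomal protein gene whose processed copies make its count uncertain, was at 798 to 1072 CPM against 1535 to 2070, with a fitted difference of -0.92 (0.14, edgeR adjusted p = 0.0213). It was lower in the remaining iKO leukocytes too, at 951 to 1170 against 1714 to 2132. A further fit used members with 0 UMIs of Cd3d, Cd3g, Cd79b, C1qa and C1qb, which left 6 samples with at least 10 cells. In it 5 genes were called, and 1 of the 10, H2-Q6, was among them. Isg15, Oasl1, Tapbpl, S100a8, S100a9, Cxcl2 and Rps10 lost their call there.

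**Figure D5:**
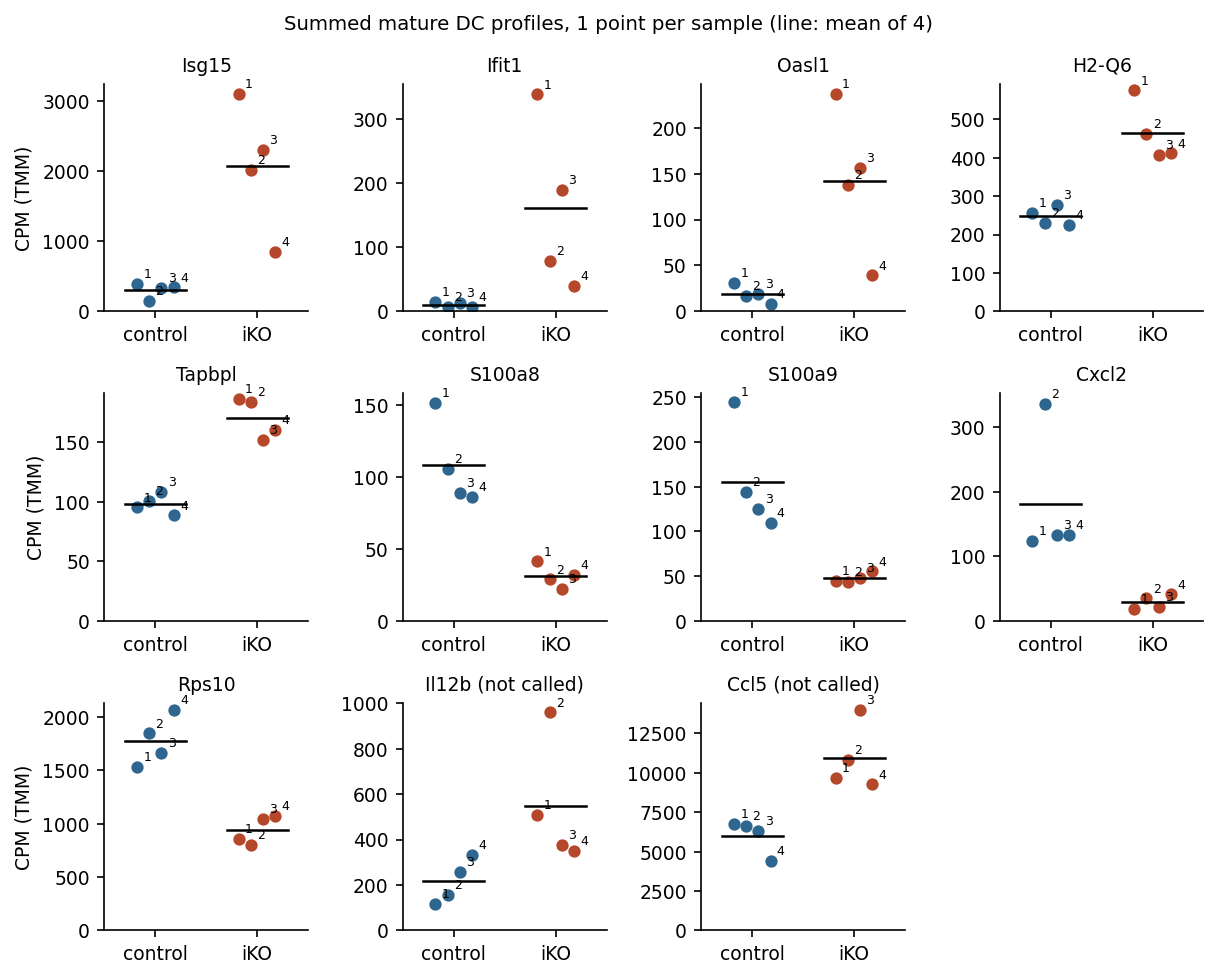
CPM in summed mature cell profiles for 9 of the 10 called genes and for Il12b and Ccl5, which were not called, 1 numbered point per sample, lines for group means, axes from 0. iKO sample 4 is the lowest iKO point for Isg15 (851), Ifit1 and Oasl1, and still above every control.

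No gene of the costimulation list was called between genotypes in the main edgeR fit, while DESeq2 called Cd40 and Cd86. Other edgeR settings did call some. Il12b was called in thinned cells, in members without other-lineage UMIs and without the count filter. Cd40 was called without iKO sample 3, Cd86 without iKO sample 4, and both without the count filter. Of the list's tested genes, 13 of 13 were above 0, with a median of 0.58, where 2915 of all 5931 genes were above 0. Il12b was at 508, 960, 377 and 348 CPM in iKO and 118, 157, 259 and 334 in control (log2 difference 1.31, SE 0.35, edgeR adjusted p = 0.151). Cd86 was at 610, 394, 308 and 252 against 208, 171, 223 and 221 (0.92, SE 0.23, adjusted p = 0.138). In both the lowest iKO sample stood just above the highest control, as it did for Il15 and Tnfsf9, where 3.39% of all genes lay wholly higher in iKO. Cd40 was at 378, 339, 184 and 263 against 118, 156, 188 and 162, with overlapping groups (0.89, SE 0.21, adjusted p = 0.130). Thinned cells had an Il12b UMI in 24.2 to 28.9% of members in iKO and 15.9 to 25% in control, and unthinned cells in 34 to 44.2% and 25 to 40%. Cd274 was at 332 to 504 CPM against 274 to 394, a difference of 0.26 (0.17).

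Among chemokines, Ccl5 was at 9669, 10828, 13970 and 9261 CPM in iKO and 6764, 6617, 6300 and 4410 in control (log2 difference 0.86, SE 0.18, edgeR adjusted p = 0.0793). The groups did not overlap and the order differed from that of the interferon genes, with iKO sample 3 the highest. Ccl4 was at 421, 324, 122 and 101 against 38.6, 46.9, 98.7 and 40.3 (2.06, SE 0.46, adjusted p = 0.115). DESeq2 called both. Ccl22 and Ccl17 had fitted differences below 0, -0.60 (0.36) and -0.97 (0.50), with overlapping groups, and were not called in the main fit. Ccl17 was called lower in iKO in members without other-lineage UMIs (6 samples, edgeR adjusted p = 0.00102). Without the count filter edgeR called both lower. A Ccl17 UMI was found in 2.22 to 7.22% of thinned iKO members and 14.3 to 28.1% of control members, but unthinned the ranges overlapped, at 5.77 to 36.4% and 26.7 to 38.6%. Unthinned C1qa cells, the background, had one in 0.299 to 1.09% in iKO and 1.33 to 3.70% in control. Cxcl9 and Cxcl10 were scattered within each group, Cxcl10 from 98.4 to 978 CPM in iKO and from 8.37 to 437 in control. Slco5a1, one of the genes nearly absent from immature cells, was at 39.0 to 76.9 CPM in iKO and 42.6 to 60.3 in control.

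Over all genes, 2915 of 5931 were above 0, and the lists below stand beside that share. Class II genes were above 0 for 11 of 11, with a median of 0.25 and 0 calls. H2-Ab1 was at 2594 to 3235 CPM in iKO and 1534 to 2459 in control, without overlap. Interferon gamma genes had a median of 0.94 with 21 of 21 above 0, and nucleic acid sensors 1.30 with 12 of 13, again with 0 calls in each. The interferon receptor and kinase list was near the background, with a median of 0.08 and 8 of 11 above 0. NF-kB genes had a median of 0.15, migration genes 0.20 and dissociation-stress genes 0.10, all with 0 calls by edgeR.

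The genotype difference was not shown to be particular to mature cells. In a fit of genotype by class, 0 of 7242 genes differed in their genotype effect between mature cells and the cDC1 gate by edgeR, with 483 (6.67%) at an unadjusted p under 0.05 and 0 by DESeq2. Against the cDC2 gate the count was 0 of 7245, with 344 (4.75%) unadjusted and 0 by DESeq2. Type I list medians for genotype were 1.44 in mature cells, 1.71 in the cDC1 gate (45 of 45 above 0, 12 called) and 1.61 in the cDC2 gate (47 of 47, 2 called). Over all genes of the cDC1 gate, 3215 of 6658 were above 0 and 25 were called higher. In the cDC2 gate these were 3026 of 6055 and 3. Class I medians were 0.64, 0.47 and 0.53. For Isg15 the genotype effect in mature cells exceeded that in the cDC1 gate by 0.25 (SE 0.56) and that in the cDC2 gate by 0.76 (0.53), and for H2-Q6 it was smaller than in the cDC1 gate by -0.76 (0.35), none of them called.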

How the data were processed

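The members, gene lists and comparisons were chosen with earlier results of these data known. Live CD45+ tumour leukocytes were profiled with 10x Genomics 3′ v3 chemistry and TotalSeqA hashtags. The authors deposited raw UMI counts for each gene and barcode, made with Cell Ranger 7.1.0 on GRCm39, per the submitters' processing notes. How barcodes were assigned to hashtags is not given in the sources used here. Samples held 1362 to 6117 barcodes and 17111065 to 96457227 UMIs.

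Of 23731 barcodes, those with at least 300 genes and at most 10% mitochondrial UMIs were kept. Doublets were scored with Scrublet in scanpy 1.11.5 and not removed: 1 member scored over 0.25. Counts of 32432 genes were summed per sample and gate (at least 10 cells) and tested with edgeR 4.0.16 in R 4.3.3 (TMM, filterByExpr, quasi-likelihood, Benjamini-Hochberg over all tested genes, adjusted p under 0.05), with the sample as block between gates. SE is the log2 difference over the square root of F. CPM of tested genes use TMM factors. Other levels use summed counts. Shares were compared by exact permutation. Scripts were tested on simulated data.

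Named genes were, per comparison, up to 10 called in each direction with the largest fold and no overlap (or the same sign in every sample), called list members, up to 4 abundant members per list, and 14 preset genes. Ribosomal genes were outside this rule, and Rps10 and other genes named beyond it were chosen after their values were seen. Alternatives were DESeq2 1.42.0, RLE scaling, no count filter, thinned cells, a stricter gate, doublet removal, members without other-lineage UMIs, larger profiles, each sample left out and a replicate block. Genes matched RefSeq promoters by symbol. Some genes are not reported here by name, though they remain in the counts.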

Additional observations from a re-analysis of the deposited data

Results flagged for a closer look

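In 66 groups of 4 samples (2 per measure), Dixon's test marked a sample that stood apart 6 times, where chance marks about 5% of groups. Control sample 1 had the lowest median, 11302.5 UMIs per mature cell, with the next at 13607. Control sample 1 also held 437 CPM of Cxcl10 against 33.7 in the next control, and 28.3 CPM of Tnfsf9 against 96.3. Control sample 2 held 337 CPM of Cxcl2 against 134. Control sample 3 held 98.7 CPM of Ccl4 against 46.9. In iKO, sample 2 held 113 CPM of Tnfsf9 while the nearest sample held 170.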

How the results depend on the processing

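Differences between mature cells and either comparator kept their direction and their call for all 45 genes examined against the cDC1 gate and 46 against the cDC2 gate. The number of genes called between genotypes, 10, was 70 with DESeq2, 360 of 15109 without a filter on low counts, 30 of 2033 in thinned cells, 5 of 3308 in members without other-lineage UMIs (6 samples) and 0 to 78 when each sample was left out. In thinned cells 1045 of 1704 genes were called against the cDC1 gate and 1245 of 2103 against the cDC2 gate, with fewer genes tested. The genotype effect between classes, 0 calls in each, had 65 and 57 without the filter, 1 and 3 in thinned cells, 3 against the cDC1 gate with at least 20 cells per profile, and 0 to 2 when each sample was left out. The share of kept cells differed by 0.0123 points with the stricter gate and by -0.657 to 0.406 when each sample was left out, and the share of gated dendritic cells by 9.82 points in thinned cells. Slco5a1, at 0.04 between genotypes, ranged from -0.25 to 0.14 when each sample was left out, and changed sign without iKO sample 4 (-0.25) and without control sample 4 (-0.06). The cause of these shifts was not tested. Of the other values of the 29 genes named between genotypes, 386 of 486 kept their call, 52 lost one and 46 gained one.

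Same-numbered samples did not deviate together: r was 0.12, -0.02, 0.05 and 0.20 over 5931 genes, and 2 of the 4 numbers, 2 and 3, correlated best with another number. With the replicate block 42 genes were called, 34 higher and 8 lower, the 10 among them.

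Genes under the count filter could not be tested, and 30 to 100 mature cells per sample limit what a profile can show. Left-out fits with 3 samples in a group share the spread of both groups.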
